A study of Mus musculus with 9 samples.

Results

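The collagen chain genes, which encode the alpha chains of the collagens, were examined in fibroblasts from mouse embryos that carried 1 of 3 genotypes of Rb1, which encodes the retinoblastoma protein. A gene was included where its annotated symbol was Col, a number, the letter a and a number, and its signal was read from the probe set with the highest mean over all arrays. This gave 44 of the 19938 genes measured, which are all 44 genes with such a symbol in the RefSeq gene table. They were grouped by the architecture of the protein as 11 fibrillar genes (types 1, 2, 3, 5, 11, 24 and 27), 9 network-forming genes (types 4, 8 and 10), 6 beaded-filament genes (type 6) and 18 others. The others comprised 9 fibril-associated, 4 transmembrane, 2 multiplexin, 1 anchoring and 2 further genes.

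The cells were Rb +/+ (WT), Rb ∆G/∆G (ΔG) or Rb -/- (null), with 3 arrays each. The ΔG allele encodes a protein mutated at the site through which it contacts most E2F transcription factors, and the null cells carry no functional Rb1. All cultures were seeded sparsely in 15 cm dishes, and 24 h later the medium was exchanged for one with 0.1% fetal bovine serum, so no group was measured in full serum. The series text describes WT, ΔG and null cultures as paired by litter, without naming the pairs or the age of the embryos. Total RNA was measured on whole-transcript gene arrays as log2 RMA signal.

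Collagen is the main structural protein of the extracellular matrix and is made in large amounts by fibroblasts. Alpha chains, rich in glycine and proline, are hydroxylated in the endoplasmic reticulum and wound into triple helices of like or unlike chains. Fibrillar collagens are then trimmed outside the cell and packed into fibrils, type 4 forms the sheet of basement membranes, type 6 forms beaded filaments near the cell surface, and fibril-associated collagens bind along fibrils. Which chains a cell makes sets which heterotrimers it can assemble.

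Array medians over all genes lay between 6.64 and 6.69. The Rb1 signal was 8.93, 9.17 and 9.16 in WT, 9.53, 9.76 and 9.54 in ΔG and 8.18, 8.58 and 8.19 in null; it was 0.77 lower in null than in WT (SE 0.12, limma adjusted p = 0.0011), but probes outside the deleted part would still report RNA, so this does not check the labels. Fibroblast markers were present in all arrays: the mean signal of the 10 measured was 10.4 to 10.6 in WT, 10.2 to 10.5 in ΔG and 9.64 to 9.93 in null. On the first principal component ΔG replicate 3 lay apart from the other ΔG arrays, at -0.30 against -13.9 and -11.5 for ΔG replicates 1 and 2, with null arrays at 24.2 to 27.4. Xist, which silences one X chromosome in female cells, had a signal of 4.24 to 4.45 in all ΔG arrays and in WT replicates 1 and 2, and of 11.42 to 11.98 in all null arrays and in WT replicate 3, with the Y-linked genes in the opposite order. Sex pattern and genotype therefore cannot be told apart between ΔG and null, and they overlap in part between null and WT.

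The upstream sequences of 4 genes are shown because they stand for the behaviours described below: chains that fell in null cells (Col1a2, Col3a1 and Col4a5) and the chain that rose most (Col5a3). Each is the 150 bases before the outermost RefSeq start in the promoter window of that gene (build GRCm38.p6), at chr6:4505468-4505617 on the plus strand for Col1a2, chr1:45311388-45311537 on the plus strand for Col3a1, chrX:141475220-141475369 on the plus strand for Col4a5 and chr9:20815118-20815267 on the minus strand for Col5a3. Capitals mark matches to the letters CCAAT (those of the NF-Y box), TATAAA (those of the TATA box) or CCGCCC, which is the other strand of the GC box GGGCGG. Their distance from the start was not part of the match.
Col1a2: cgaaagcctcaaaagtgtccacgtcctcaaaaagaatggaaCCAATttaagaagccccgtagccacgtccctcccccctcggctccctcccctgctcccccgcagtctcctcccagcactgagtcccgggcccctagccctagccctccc
Col3a1: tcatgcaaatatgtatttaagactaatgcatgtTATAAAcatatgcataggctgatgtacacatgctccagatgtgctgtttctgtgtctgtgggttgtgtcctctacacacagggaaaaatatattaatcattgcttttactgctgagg
Col4a5: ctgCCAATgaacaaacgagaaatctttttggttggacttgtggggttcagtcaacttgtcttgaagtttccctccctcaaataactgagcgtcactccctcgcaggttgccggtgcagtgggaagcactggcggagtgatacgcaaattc
Col5a3: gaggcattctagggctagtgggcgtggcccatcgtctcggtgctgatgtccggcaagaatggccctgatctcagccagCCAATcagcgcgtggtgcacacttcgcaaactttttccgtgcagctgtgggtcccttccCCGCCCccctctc
The stretches of Col1a2 and Col5a3 were rich in G and C (62.7% and 62.0%), that of Col4a5 had 50.0% and that of Col3a1 had 37.3%. In these stretches Col1a2 carried a CCAAT match and no TATAAA match, and Col3a1 the reverse. The TATAAA letters of Col3a1 lay toward the end of its stretch that is far from the start. Col4a5 carried a CCAAT match only, and Col5a3 both a CCAAT and a GC box match.

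RefSeq promoter windows (300 bases around each start) were held for 35 of the 44 collagen genes, 14 of them among the genes that fell in null cells. Common E2F letters (TTTCCCGC, TTTGGCGC, TTTCGCGC or TTTGCCGC on either strand) were found in 1 collagen gene, Col17a1, or 2.86%, against 2.61% of the 27025 genes with a window and 2.26% of the 32851 windows. None of the 14 genes that fell held them. CCAAT on either strand was found in 13 collagen genes (37.1%) against 41.1% of all genes, GGGCGG in 22 (62.9%) against 38.2%, and TATAAA in 5 (14.3%) against 15.7%. Among the 14 genes that fell, 6, 10 and 1 held these letters, in that order. A match here is a run of letters and no measurement of binding.

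In the comparison of null with WT cells, 18 collagen genes fell and 2 rose. Those that fell include the chains of type 1 collagen, the main fibril of skin, tendon and bone, of type 3 collagen, and of the widely expressed type 4 collagen of basement membranes. The falls ranged from 0.26 to 0.85 on the log2 scale, which is 1.20-fold to 1.81-fold, and the 2 that rose were Col5a3 (1.44-fold) and Col18a1 (1.29-fold). In bulk RNA, fewer cells of a type and less RNA per cell cannot be told apart. The 18 genes that fell make up 40.9% of the 44, and 10.1% of all genes fell. The 2 that rose make up 4.5%, and 8.38% of all genes rose, with 18.4% called in either direction.

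The other 24 collagen genes did not pass the threshold of 0.05 on limma's adjusted p. The median log2 difference over the 44 genes was -0.17, against -0.01 over all genes, and 36 of the 44 had a lower mean in null. Null and WT arrays did not overlap for 27 collagen genes (61.4%), against 34.7% of all genes. Collagen genes tend to be bright, and brighter genes were called more often. Of the 32 collagen genes above the median gene in mean signal, 16 fell and 2 rose, where 15.9% of all such genes fell and 12.2% rose. Of the 12 at or below it, 2 fell. Over all 19938 genes 2008 fell, and 1586 of these were among the 9969 above the median gene. The collagen genes nearest the threshold were Col11a1, Col12a1 and Col6a2 on the called side (adjusted p = 0.034, 0.034 and 0.040) and Col15a1, Col26a1 and Col4a6 on the other (0.073, 0.098 and 0.099).

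**Figure D1:**
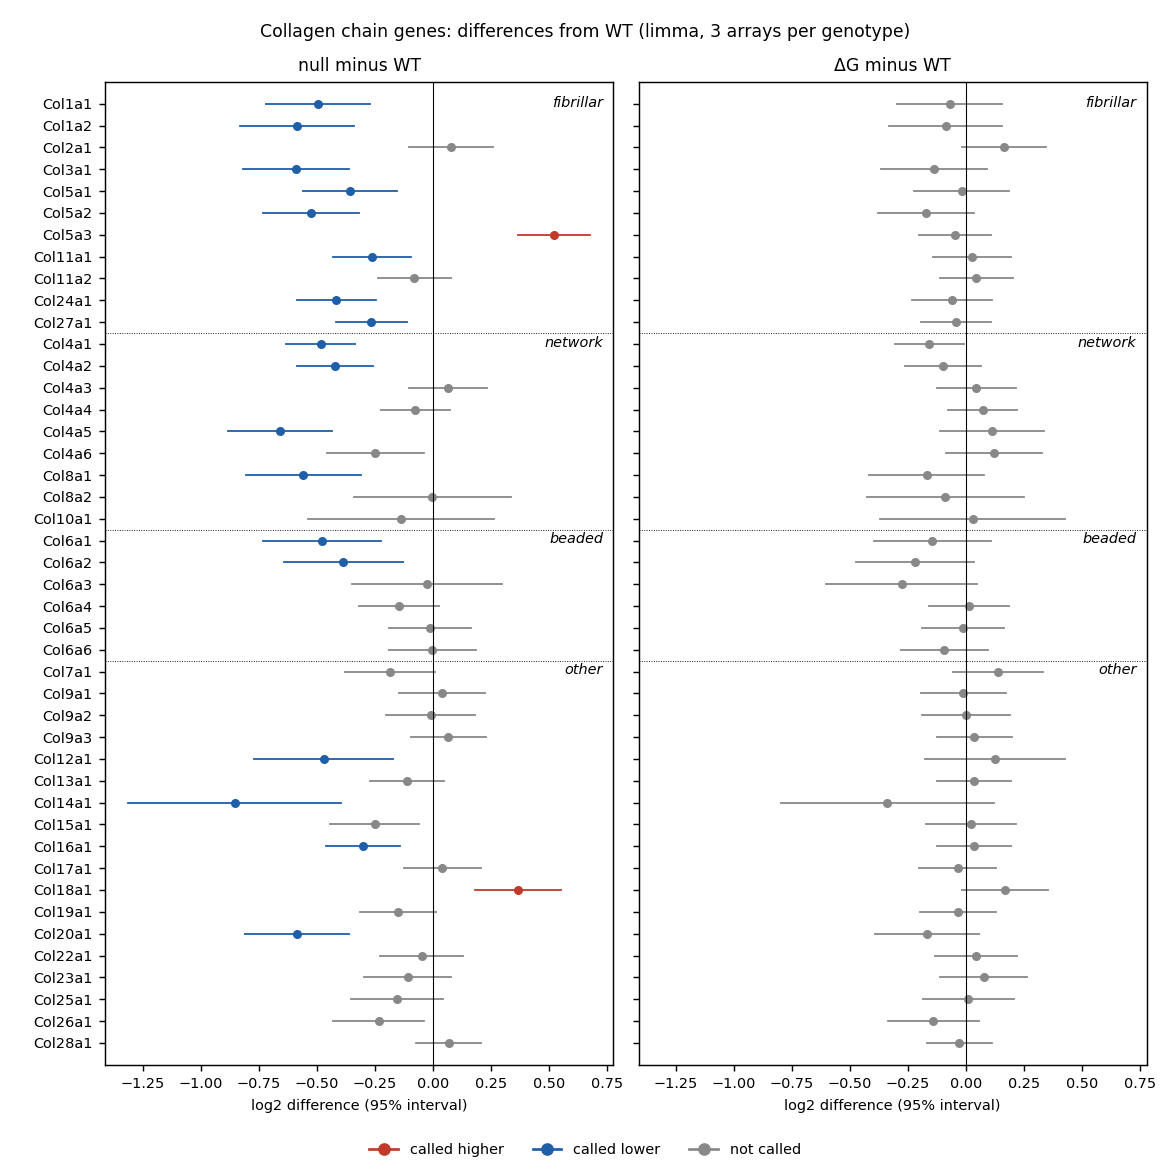
Fitted log2 differences (horizontal axis) of the 44 collagen genes (rows, grouped by architecture) for null minus WT on the left and ΔG minus WT on the right; points are estimates, lines are 95% confidence intervals, and colour shows whether a gene was called at an adjusted p of 0.05. On the left 18 genes are called lower (blue) and 2, Col5a3 and Col18a1, higher (red), while all genes on the right are uncalled (grey).

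None of these falls was called in ΔG cells at the precision of 3 arrays. Col6a1, Col6a2, Col8a1, Col14a1 and Col27a1 were not called in null minus ΔG either (limma adjusted p = 0.10, 0.44, 0.056, 0.16 and 0.074). For these genes ΔG was told apart from neither WT nor null. No collagen gene passed the threshold in ΔG minus WT by limma, in a comparison in which 0.813% of all genes did (0.602% higher and 0.211% lower; among genes above the median 1.05% and 0.261%). One gene, Col4a1, had an unadjusted p under 0.05, with a difference of -0.16 (95% interval -0.31 to -0.01, adjusted p = 0.39). The median over the 44 genes was -0.02, and that over all genes was also -0.02. ΔG and WT arrays did not overlap for 4 collagen genes (9.1%), which were Col4a1, Col7a1, Col14a1 and Col26a1, against 16.5% of all genes. For the 18 genes that fell in null cells the differences in ΔG ran from -0.34 for Col14a1 to 0.12 for Col12a1. Their 95% intervals reached from -0.80 (Col14a1) to 0.42 (Col12a1), the genes with the largest SE (0.21 and 0.14). Most were narrower, such as -0.19 to 0.11 for Col27a1. Shifts in ΔG inside the interval of a gene were not excluded with these arrays.

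Set against ΔG, null cells had 15 collagen genes lower (34.1%) and 1 higher (2.3%). The background was 4.44% lower and 4.27% higher over all genes, 8.71% in either direction, and 6.79% lower and 5.67% higher among genes above the median. The median over the collagen genes was -0.17, and arrays of null and ΔG did not overlap for 27 genes (61.4%, against 27% of all genes). The comparison shares the null arrays with null minus WT, so its values are given beside the others and are not a second experiment. The count of lower genes depended on the array left out. Leaving out ΔG replicate 1 gave 2, leaving out ΔG replicate 2 gave 3, leaving out null replicate 1 gave 2 and leaving out null replicate 3 gave 3. Leaving out ΔG replicate 3, the array that lay apart, gave 17. The number of genes called over the whole array moved in the same order from 1737 to 762, 885, 847, 1210 and 2408. The median collagen difference was -0.19, -0.16, -0.20, -0.19 and -0.20 in that order. The median SE of the collagen genes was 0.0998, 0.0925, 0.0999, 0.0940 and 0.0939, against 0.0852 with all arrays. Leaving out null replicate 2 gave 12 lower, with 1288 genes called over the whole array. The 1 higher gene, Col5a3, was called in all of these fits, and Col4a5 was called lower in all of them. Of the other lower genes, Col4a2 was called without ΔG replicate 1, Col4a1 and Col24a1 without ΔG replicate 2, Col4a1 without null replicate 1, and Col3a1 and Col4a1 without null replicate 3.

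Among the fibrillar genes, 8 of 11 fell and 1 rose in null against WT, with a median difference of -0.36. Col1a1 and Col1a2, whose chains combine as 2 to 1 in type 1 collagen, both fell. The signal of Col1a1 was 12.77, 12.72 and 12.45 in WT, 12.54, 12.73 and 12.46 in ΔG and 12.17, 12.24 and 12.05 in null. Every null array lay below every WT and ΔG array, while ΔG and WT overlapped. It fell by 0.49 against WT (SE 0.10, limma adjusted p = 0.0062); with the arrays quantile normalised once more the difference was -0.19 and was not called (adjusted p = 0.195).

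For Col1a2 the signal was 12.75, 12.74 and 12.34 in WT, 12.47, 12.67 and 12.44 in ΔG and 12.02, 12.07 and 11.98 in null. WT replicate 3 was the lowest WT array for both chains and still lay above all null arrays. Col1a2 fell by 0.58 (SE 0.11, adjusted p = 0.0040), against -0.29 and no call (adjusted p = 0.052) after quantile normalisation once more. Null minus ΔG was -0.42 for Col1a1 and -0.50 for Col1a2, with adjusted p = 0.026 and 0.019. After that normalisation these values were -0.12 and -0.20 and neither was called (adjusted p = 0.49 and 0.22). The difference between both chains in their change was 0.09 (exact permutation test over the arrays, two-sided, p = 0.2, with 0.1 the smallest p that 3 against 3 allows).

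Col3a1 encodes the only chain of type 3 collagen, which forms fine fibrils together with type 1. Its signal was 11.31, 11.29 and 11.17 in WT, 11.24, 11.15 and 10.97 in ΔG and 10.74, 10.45 and 10.81 in null, with the ΔG arrays reaching below the WT range. It fell by 0.59 in null (SE 0.10, adjusted p = 0.0025), a 1.50-fold difference, and the value in ΔG was -0.14 (adjusted p = 0.68). Col5a2, its immediate neighbour on chromosome 1 in RefSeq gene order, gave 10.91, 11.15 and 11.01 in WT, 10.84, 10.95 and 10.77 in ΔG and 10.53, 10.63 and 10.34 in null. The null arrays again lay lowest, and the fall was 0.52 (SE 0.095, adjusted p = 0.0029). Null minus ΔG was -0.45 for Col3a1 and -0.35 for Col5a2, both called by limma (adjusted p = 0.021 and 0.042). These 2 calls were lost in 6 and 8 of 17 alternatives. Among them was quantile normalisation once more (adjusted p = 0.13 and 0.071).

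Type 5 collagen sits inside type 1 fibrils and limits their diameter. In null cells its chains Col5a1 and Col5a2 fell, and Col5a3 rose. The changes of Col5a1 and Col5a2 against WT differed by 0.17 (exact permutation p = 0.3). Col5a1 gave 9.81, 9.79 and 9.62 in WT, 9.72, 9.86 and 9.59 in ΔG and 9.39, 9.49 and 9.28 in null. It fell by 0.36 (SE 0.093, adjusted p = 0.020), with null below all other arrays; the call was lost without WT replicate 1 or 2 or null replicate 1 or 3 (adjusted p = 0.072, 0.071, 0.061 and 0.075). Col5a3, a chain that can replace one of the others in a minor form of the trimer, had signals of 7.24, 7.09 and 7.14 in WT, 7.10, 7.08 and 7.15 in ΔG and 7.76, 7.65 and 7.64 in null. It rose by 0.52 against WT (SE 0.070, adjusted p = 0.00049) and by 0.57 against ΔG (adjusted p = 0.00092), with all null arrays above all others. The change of Col5a3 exceeded that of Col5a1 by 0.88 on the log2 scale, with no overlap between null and WT arrays (exact permutation p = 0.1, the smallest possible; 0.27 after adjustment over the 8 chain pairs compared). The same difference of changes in ΔG against WT was -0.03 (exact p = 0.8).

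The remaining fibrillar genes that fell were Col11a1, Col24a1 and Col27a1. Col11a1, a chain related to Col5a1 and found in cartilage fibrils and in fibroblasts, gave 10.07, 10.13 and 10.24 in WT, 10.10, 10.29 and 10.12 in ΔG and 9.89, 9.87 and 9.90 in null. Its fall of 0.26 was the smallest of those called, with the null arrays close together and below all others (adjusted p = 0.034). Col24a1 gave 6.72, 6.59 and 6.47 in WT, 6.56, 6.45 and 6.59 in ΔG and 6.18, 6.20 and 6.16 in null, a fall of 0.41 (adjusted p = 0.0036). Col27a1 gave 8.001, 8.14 and 8.07 in WT, 8.02, 8.01 and 8.05 in ΔG and 7.79, 7.88 and 7.75 in null, a fall of 0.26 (adjusted p = 0.021). For both, null arrays lay below all others. Leaving out WT replicate 2, null replicate 1 or null replicate 3 ended the call of Col27a1 (adjusted p = 0.084, 0.069 and 0.070), and leaving out WT replicate 2, WT replicate 3 or any null array ended that of Col11a1 (0.079, 0.11, 0.088, 0.087 and 0.072). Col2a1, the fibril chain of cartilage, and Col11a2 did not pass, with differences of 0.08 and -0.08.

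**Figure D2:**
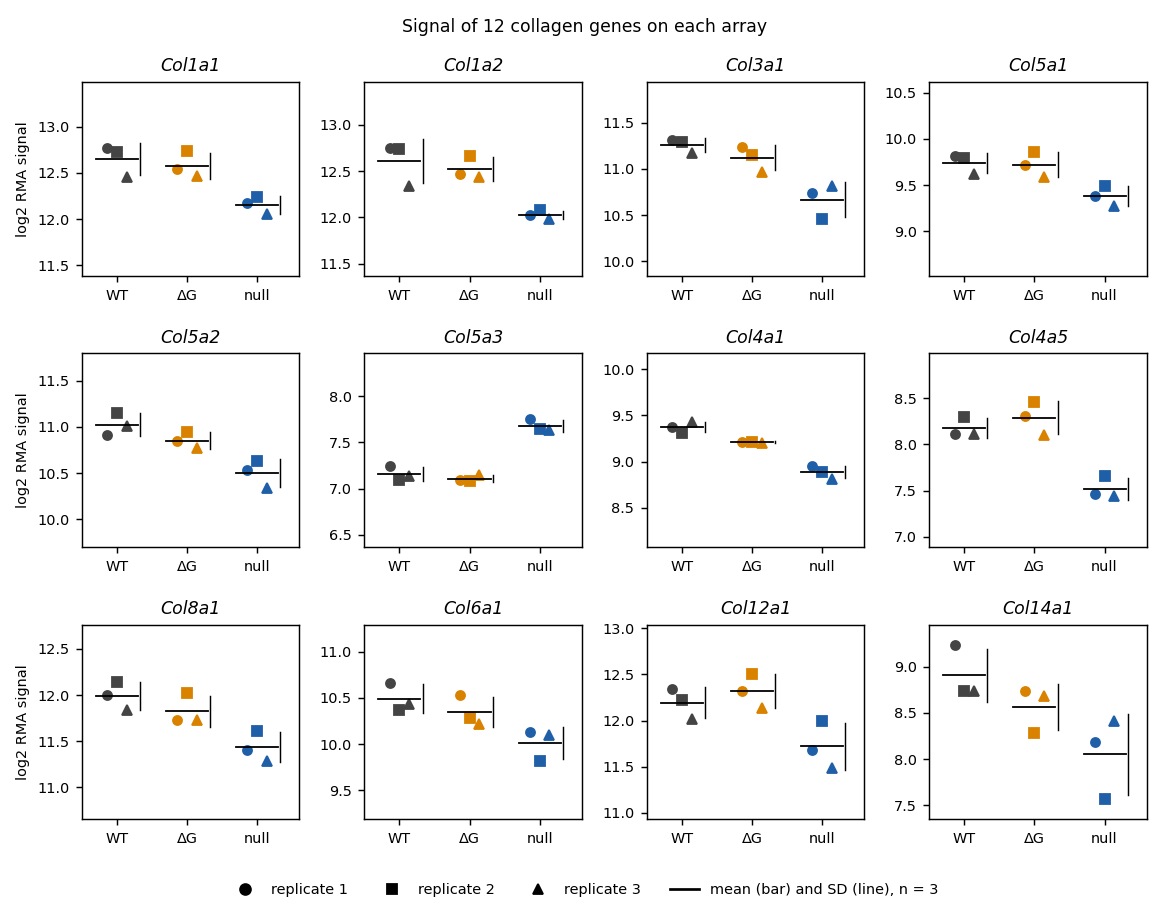
Log2 RMA signal (vertical axis) of 12 collagen genes in the 9 arrays, with the symbol shape giving the replicate number, a horizontal bar the group mean and a vertical line 1 SD (n = 3); every panel spans the same number of log2 units. Null arrays lie below all WT arrays in each panel but that of Col5a3, where they lie above.

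Of the network-forming genes, 4 of 9 fell in null and none rose, with a median of -0.25. Col4a1 and Col4a2, which form the common heterotrimer of basement membranes and lie on chromosome 8 with no other protein-coding gene between them, both fell. Col4a1 had signals of 9.37, 9.31 and 9.42 in WT, 9.22, 9.22 and 9.20 in ΔG and 8.96, 8.89 and 8.82 in null. The 3 groups did not overlap, with ΔG between WT and null, although its difference from WT did not pass. In null it fell by 0.48 against WT (SE 0.067, adjusted p = 0.00063) and by 0.32 against ΔG (adjusted p = 0.013). Col4a2 gave 9.37, 9.40 and 9.35 in WT, 9.14, 9.38 and 9.31 in ΔG and 8.96, 8.99 and 8.91 in null. Its ΔG arrays reached into the WT range, and it fell by 0.42 in null (SE 0.074, adjusted p = 0.0026). The changes of the pair differed by 0.06 (exact permutation p = 0.2).

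Col4a5 and Col4a6, neighbours on the X chromosome whose chains join in basement membranes of smooth muscle and skin, had different values. Col4a5 gave 8.12, 8.30 and 8.11 in WT, 8.31, 8.46 and 8.10 in ΔG and 7.46, 7.65 and 7.44 in null. Null arrays were lowest, and the fall was 0.66 against WT (SE 0.10, adjusted p = 0.0012) and 0.77 against ΔG (adjusted p = 0.0014). Col4a6 gave 5.63, 5.86 and 5.98 in WT, 5.92, 6.07 and 5.84 in ΔG and 5.60, 5.59 and 5.53 in null. It was not called against WT (-0.25, adjusted p = 0.099; 0.030 without WT replicate 1) and was called against ΔG (-0.37, adjusted p = 0.034). The fall of Col4a5 exceeded that of Col4a6 by 0.41, with no overlap between null and WT arrays (exact p = 0.1, the smallest possible; 0.27 adjusted). Col4a3 and Col4a4, whose chains join Col4a5 in kidney, lung and inner ear, had signals of 5.71 to 6.13 over all arrays and differences of 0.07 and -0.08, neither called.

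Type 8 collagen forms hexagonal sheets under endothelia and around vessels. Col8a1 gave 12.004, 12.14 and 11.84 in WT, 11.73, 12.02 and 11.72 in ΔG and 11.40, 11.61 and 11.29 in null. Null arrays were lowest, with a fall of 0.56 (SE 0.11, adjusted p = 0.0055), and null minus ΔG was -0.39 (adjusted p = 0.056). Its partner Col8a2 varied within null from 7.52 to 8.21, wider than the difference of means, and was not called. The change of Col8a2 minus that of Col8a1 was 0.56, with overlap between null and WT arrays (exact permutation p = 0.3). Col10a1, a chain of hypertrophic cartilage, ranged from 8.77 to 9.40 over all arrays with overlap of all groups and was not called.

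Type 6 collagen is assembled from Col6a1, Col6a2 and one more chain, usually Col6a3. Here 2 of the 6 genes fell. Col6a1 gave 10.66, 10.37 and 10.44 in WT, 10.53, 10.28 and 10.22 in ΔG and 10.13, 9.81 and 10.10 in null, and Col6a2 gave 10.23, 10.04 and 9.95 in WT, 9.96, 9.78 and 9.84 in ΔG and 9.82, 9.43 and 9.83 in null. The null arrays lay below the WT arrays for both genes, and null replicate 2 was the lowest array of all. Col6a1 fell by 0.48 (SE 0.12, adjusted p = 0.014) and Col6a2 by 0.38 (SE 0.12, adjusted p = 0.040). The change of Col6a1 minus that of Col6a2 was -0.09 (exact permutation p = 0.2). Col6a1 was not called without WT replicate 1 or null replicate 2 (adjusted p = 0.057 and 0.054), and Col6a2 not without WT replicate 1, WT replicate 2, ΔG replicate 2 or null replicate 2 (0.14, 0.083, 0.051 and 0.12), nor without null replicate 1. Neither was called against ΔG (adjusted p = 0.10 and 0.44).

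Col6a3 was not called. Its signal was 10.11, 9.88 and 9.81 in WT, 9.81, 9.44 and 9.71 in ΔG and 10.07, 9.56 and 10.09 in null, so null replicates 1 and 3 lay within the WT range. The difference was -0.03 (95% interval -0.35 to 0.30), and the change of Col6a3 minus that of Col6a1 was 0.45, with no overlap between null and WT arrays (exact p = 0.1, the smallest possible; 0.27 adjusted). Col6a4, Col6a5 and Col6a6, a cluster on chromosome 9 encoding chains that can take the place of Col6a3, had differences of -0.15 to -0.001 and were not called. The median over the 6 genes was -0.09, and none was called in null minus ΔG.

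**Figure D3:**
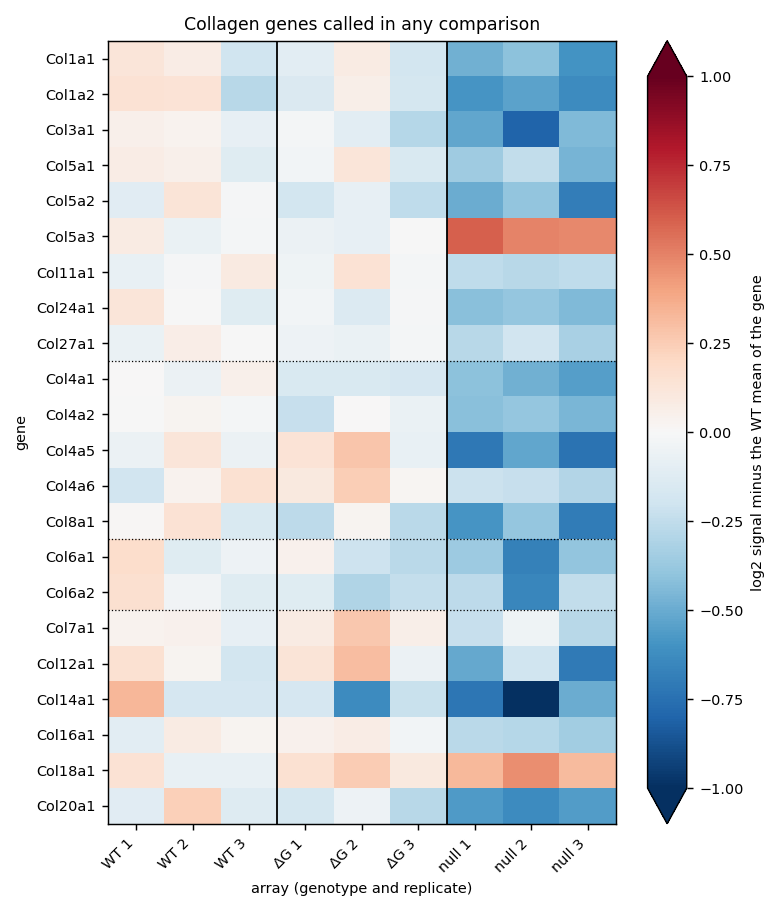
Signal of the 22 collagen genes called in any comparison (rows, by architecture, with dotted lines between the classes) in the 9 arrays (columns), as log2 difference from the mean of the WT arrays of the same gene on a colour scale from blue (below) to red (above). The null columns are blue but for Col5a3 and Col18a1, and null replicate 2 is the darkest for Col3a1, Col6a1, Col6a2 and Col14a1 and near 0 for Col7a1.

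The fibril-associated genes held 4 that fell and none that rose among 9. Col14a1, which binds fibrils through decorin and is typical of mature connective tissue, showed the largest fall of any collagen gene and the widest spread. Its signal was 9.24, 8.74 and 8.74 in WT, 8.74, 8.28 and 8.68 in ΔG and 8.19, 7.56 and 8.41 in null. The null arrays lay below WT but overlapped ΔG. It fell by 0.85 against WT (SE 0.21, adjusted p = 0.015), and null minus ΔG was -0.51 (adjusted p = 0.16). Without WT replicate 1, the highest WT array, the fall was 0.69 (adjusted p = 0.058). Col12a1, a related chain on the surface of dense fibrils, gave 12.35, 12.22 and 12.01 in WT, 12.32, 12.50 and 12.13 in ΔG and 11.69, 11.996 and 11.49 in null, with null replicate 2 just below WT replicate 3. It fell by 0.47 (SE 0.14, adjusted p = 0.034), and by 0.59 against ΔG (adjusted p = 0.022); the call against WT was lost without WT replicate 1 or 2 or null replicate 1 or 3 (adjusted p = 0.12, 0.095, 0.10 and 0.13).

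Col16a1 and Col20a1, less studied chains of the same class, also fell. Col16a1 gave 7.70, 7.89 and 7.84 in WT, 7.86, 7.89 and 7.79 in ΔG and 7.54, 7.53 and 7.46 in null, a fall of 0.30 (adjusted p = 0.015). Col20a1 gave 6.61, 6.96 and 6.59 in WT, 6.54, 6.67 and 6.44 in ΔG and 6.16, 6.09 and 6.16 in null, a fall of 0.58 (adjusted p = 0.0024). In both, every null array lay under every other array, and WT replicate 2 was the highest WT array. Col16a1 was not called without WT replicate 2 (adjusted p = 0.063) or null replicate 3 (0.051). Col9a1, Col9a2, Col9a3, Col19a1 and Col22a1 were not called in any comparison; their signals were 5.62 to 7.20 and their differences in null -0.15 to 0.07.

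Col18a1 was the only called gene outside these classes in null against WT. It encodes a heparan sulfate-bearing basement membrane collagen whose end fragment is endostatin. Its signal was 7.45, 7.23 and 7.23 in WT, 7.45, 7.56 and 7.40 in ΔG and 7.63, 7.77 and 7.62 in null. It rose by 0.37 against WT (SE 0.085, adjusted p = 0.011). ΔG lay between, at 0.17 above WT, which did not pass (adjusted p = 0.48), and null minus ΔG was 0.20 (adjusted p = 0.18). Col15a1, the other multiplexin, had a difference of -0.25 in null (adjusted p = 0.073; 0.045 without ΔG replicate 3), opposite in sign and not called.

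Col7a1, whose chain forms the anchoring fibrils under the epidermis, was called in null minus ΔG only. Its signal was 7.66, 7.66 and 7.53 in WT, 7.70, 7.89 and 7.67 in ΔG and 7.39, 7.58 and 7.34 in null. The null arrays lay below ΔG but overlapped WT, where null replicate 2 lay above WT replicate 3. The difference was -0.32 against ΔG (adjusted p = 0.047) and -0.18 against WT (adjusted p = 0.19). The call against ΔG was lost in 9 of 17 alternatives, among them the variance model with trend (adjusted p = 0.050), the fit of both groups alone (0.069), the fits without WT replicate 1 or 2 (0.063 and 0.060), ΔG replicate 1 or 2 (0.0965 and 0.165) or null replicate 1 or 3 (0.16 and 0.14), and the Y-linked covariate (0.71). The transmembrane genes Col13a1, Col17a1, Col23a1 and Col25a1 had differences of -0.15 to 0.04 in null against WT, and none was called. Of the 2 further genes, Col26a1 and Col28a1, neither was called.

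The falls were also compared with WT replicate 3 alone, the WT array with the same Xist and Y pattern as the null arrays. WT replicate 3 was the lowest WT array in 11 of the 18 genes that fell, with a median of -0.15 against the mean of WT replicates 1 and 2; over all 44 genes this median was -0.02. Against WT replicate 3, with the lone array assumed to vary like the other groups, all 20 called genes kept their sign and 6 were still called. These were Col5a3 and Col18a1, higher, and Col4a1, Col4a2, Col4a5 and Col5a2, lower. The median of the 18 falls was -0.38, against -0.48 with all WT arrays, and the median over the 44 genes was -0.22. Col1a1 stood at -0.30 (adjusted p = 0.17), Col1a2 at -0.31 (0.11) and Col3a1 at -0.50 (0.057). The median SE was 0.12 with WT replicate 3 alone and 0.085 with all arrays, and 5.16% of all genes were then called lower. With a covariate that held each array's mean Y-linked signal, 1 collagen gene was higher (Col5a3) and 1 lower (Col4a1). Of all 19938 genes, 764 were then called higher and 816 lower (4.09%). All 20 genes kept their sign, 5 with a difference at least as large as before. The median of the 18 falls was -0.36, and Col1a1 and Col1a2 both stood at -0.27. In null minus ΔG, where sex pattern and genotype coincide, that covariate left no collagen gene and 53 genes in all called. The median of the 15 genes called lower there moved from -0.35 to -0.30. Col1a1 moved from -0.42 to -0.10 (SE 0.16 with the covariate) and Col1a2 from -0.50 to -0.05 (SE 0.15). All 16 genes called there kept their sign, 5 with a difference at least as large as before. The median SE of the collagen genes was 0.155 with the covariate. Only the WT group held both patterns, with Y-linked means of 8.48, 8.88 and 4.37. The slope of the covariate thus rested mainly on WT replicate 3, so these values cannot separate sex pattern from genotype.

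**Figure D4:**
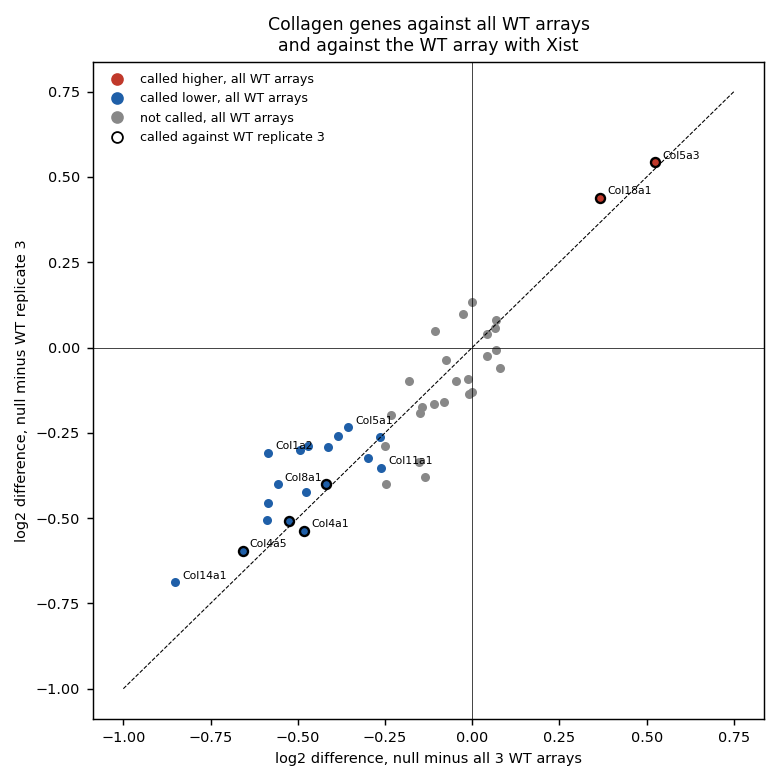
Log2 difference of each of the 44 collagen genes in null against all 3 WT arrays (horizontal axis) and against WT replicate 3 alone (vertical axis); colour shows the call with all WT arrays, a black rim a call against WT replicate 3, and the dashed line equal values. All 20 coloured points keep their side of 0, 6 have a rim, and most of the blue points lie above the dashed line, closer to 0 on the vertical axis.

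The genes that modify, fold, secrete, trim, cross-link and bind collagen were followed as a list of 48, of which 44 were measured. In null against WT 20 fell and 3 rose, with a median of -0.30. The number that fell was 14 to 25 when 1 array was left out, where 6.74% to 10.5% of all genes fell. With all arrays 10.1% of all genes fell and 8.38% rose. Among those above the median gene, where 38 of the 44 lie, 15.9% and 12.2% did. Ctsk, the lysosomal protease that degrades collagen, had a signal of 10.20, 10.14 and 9.85 in WT, 9.61, 9.50 and 9.57 in ΔG and 8.81, 8.59 and 8.93 in null. The 3 groups did not overlap, and it fell by 1.28 in null (SE 0.11, adjusted p = 2.7e-05). P3h1, a prolyl 3-hydroxylase of nascent chains, gave 9.04, 9.06 and 8.94 in WT, 8.83, 8.61 and 8.73 in ΔG and 8.32, 8.17 and 8.26 in null and fell by 0.76 (adjusted p = 9.1e-05). Fkbp7, a prolyl isomerase of the endoplasmic reticulum, fell by 0.71 (adjusted p = 0.00051), and Mrc2, the receptor that takes up collagen fragments, by 0.59 (adjusted p = 0.00099).

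The receptors moved in different directions. Itga1, the alpha subunit of a collagen-binding integrin, gave 9.60, 9.84 and 9.50 in WT, 9.88, 9.77 and 9.24 in ΔG and 8.82, 8.69 and 8.64 in null and fell by 0.93 (adjusted p = 0.0014). Itga2, the subunit of another collagen-binding integrin, gave 5.75, 5.78 and 5.95 in WT, 6.03, 6.55 and 6.24 in ΔG and 6.50, 7.05 and 6.71 in null. It rose by 0.93 (adjusted p = 0.0016), with ΔG arrays above WT and in part within the null range. The other 2 that rose, named after their values were seen, were Adamts3, which removes the amino-terminal propeptide of fibrillar procollagens (by 1.11, adjusted p = 0.0039), and Pcolce2, an enhancer of carboxyl-terminal trimming (by 0.66, adjusted p = 0.019). Pcolce2 was not called without WT replicate 1 or 3 or null replicate 1 or 2 (adjusted p = 0.050, 0.053, 0.0575 and 0.075).

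Serpinh1, the collagen chaperone HSP47, and Lox, the cross-linking lysyl oxidase, were also looked up after the values were seen. Serpinh1 fell by 0.36 (adjusted p = 0.026; 0.068 to 0.10 without WT replicate 1 or 2 or null replicate 1 or 3), and Lox was not called (-0.49, adjusted p = 0.14). With WT replicate 3 alone as the WT group, fewer assembly genes were called lower than with all WT arrays, and Serpinh1 stood at -0.15. With the Y-linked covariate 3 assembly genes were called lower and 2 higher, where 816 (4.09%) and 764 of all 19938 genes were. Ctsk, P3h1, Fkbp7, Adamts3 and Pcolce2 passed, and Mrc2, Itga1, Itga2 and Serpinh1 did not (adjusted p = 0.052, 0.067, 0.057 and 0.60).

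None of the 44 assembly genes was called in ΔG against WT by limma; 9 had an unadjusted p under 0.05, as did 2343 of all 19938 genes, and the median was -0.05. The lowest p values belonged to Fkbp7 (-0.44, adjusted p = 0.063), Ctsk (-0.50, 0.064), P3h1 (-0.29, 0.14), Fkbp14 (-0.32, 0.16), Colgalt2 (-0.21, 0.23) and Itga2 (0.45, 0.25). Ctsk passed without WT replicate 3 (adjusted p = 0.0315) and with the Y-linked covariate (0.033), and both Ctsk (0.044) and Fkbp7 (0.046) passed without null replicate 2. In null minus ΔG, 11 assembly genes were lower and 1, Adamts3, was higher, against 4.44% lower and 4.27% higher over all genes. When 1 array was left out, 6 to 12 assembly genes were lower, where 2.15% to 5.91% of all genes were. The count was 6 without ΔG replicate 1 or 2 or null replicate 1 or 3. With the Y-linked covariate none was called in either direction (adjusted p = 0.31 for Ctsk and 0.22 for Adamts3). The lowest p values there were those of Ctsk (-0.78, adjusted p = 0.0017), Mrc2 (-0.60, 0.0025), Itga1 (-0.91, 0.0038), P3h1 (-0.47, 0.0046), Itga11, another collagen-binding integrin subunit (-0.94, 0.0064), and Ddr1, a collagen receptor kinase (-0.48, 0.0075).

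**Figure D5:**
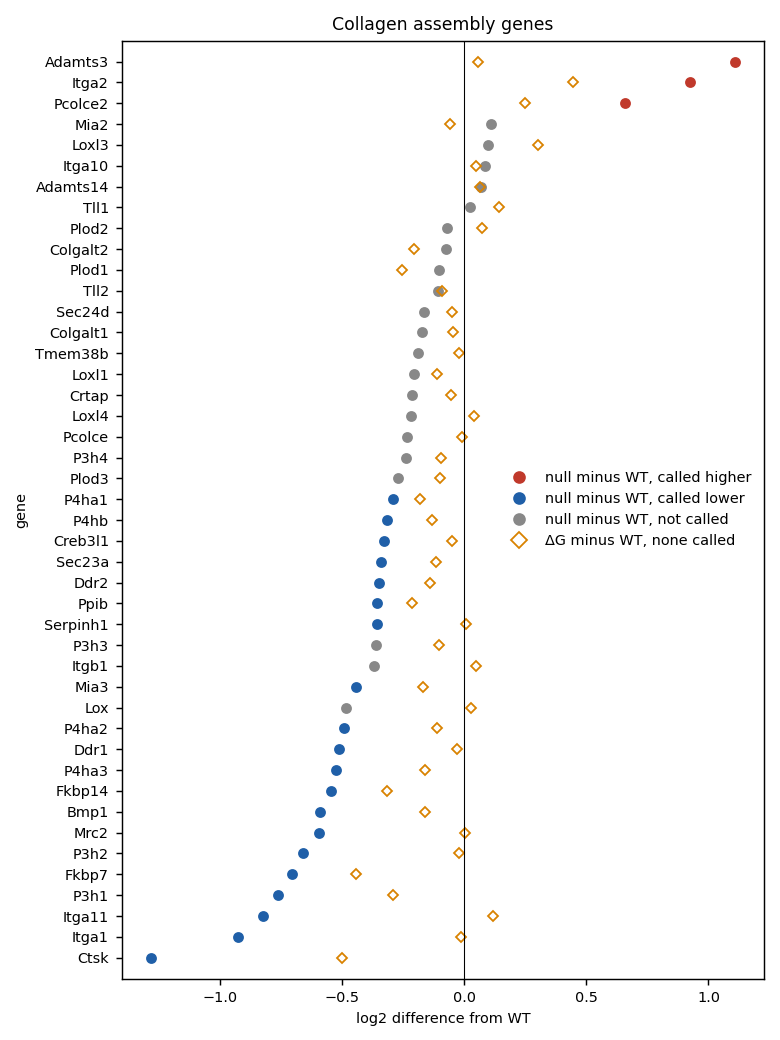
Fitted log2 differences from WT (horizontal axis) of the 44 measured collagen assembly genes (rows, sorted by the null value); circles are null minus WT, coloured where called at an adjusted p of 0.05, and open diamonds are ΔG minus WT. In null 20 genes are called lower (blue) and 3, Adamts3, Itga2 and Pcolce2, higher (red); no ΔG value is called, and that of Ctsk lies farthest below 0.

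Most markers of fibroblasts themselves also fell. Of the 10 measured, 7 fell in null against WT (Pdgfra, Pdgfrb, Thy1, Dcn, Lum, Fap and Twist1) and none rose, where 10.1% of all genes fell and 8.38% rose (15.9% and 12.2% above the median gene). S100a4, Vim and Prrx1 were not called, and the mean of S100a4 was higher in null (8.29) than in WT (8.02). Of 8 smooth muscle markers 4 fell, with a mean signal of 8.44 to 8.99 in WT, 8.73 to 9.08 in ΔG and 7.96 to 8.41 in null. Macrophage and leukocyte markers had a mean signal of 5.52 to 6.60 in WT, 5.84 to 7.23 in ΔG and 5.68 to 5.98 in null, with none of 11 called. Chondrocyte markers had 3 of 8 higher in null (Acan, Matn3 and Comp), with a mean of 5.83 to 5.88 in WT, 5.81 to 5.95 in ΔG and 6.09 to 6.24 in null. The mean in null was above WT for 6 and below it for 2. ΔG arrays lay above WT and overlapped null for Matn3 (6.21 to 6.815, WT 5.60 to 5.94) and Acan (5.41 to 5.69, WT 5.24 to 5.30). For Comp they overlapped WT, and no chondrocyte marker was called in ΔG. The cartilage collagen chains Col2a1, Col9a1, Col9a2, Col9a3, Col10a1 and Col11a2 had differences of -0.14 to 0.08 in null against WT and were not called. Endothelial markers had 1 of 8 lower, adipocyte markers 1 higher and 1 lower of 6 and skeletal muscle markers 1 lower of 8, while epithelial (7), osteoblast (4) and neural and glial (5) markers had none called. The marker calls were not repeated with arrays left out or with the sex pattern. The part of these shifts in the collagen values was not tested.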

How the data were processed

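RNA of 9 fibroblast cultures, 3 per genotype, was hybridised to Affymetrix Mouse Gene 1.0ST arrays, per the labels. The deposited values are log2 RMA signals made by the authors (the submitters' processing notes name RMA and affy, without versions; the array's genome build is not given in the sources used here). Of 35512 probe sets, 21789 had exactly 1 gene symbol. The brightest probe set of a gene was kept, leaving 19938 genes; 2 collagen genes, Col6a5 and Col6a6, had 2 probe sets. Signals of different probe sets were not compared. All genes and arrays entered a single limma fit (limma version 3.58.1 under R version 4.3.3) that estimated each genotype's mean and left 6 residual degrees of freedom, followed by default eBayes and Benjamini-Hochberg adjustment over all genes; a gene was called at an adjusted p under 0.05. The fit was tested on simulated data. Differences between the changes of 8 chain pairs were tested by exact permutation. Promoter sequences and gene order came from RefSeq (GRCm38.p6).

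Per-array values are given for every called collagen gene, and the 6 assembly genes with the lowest p are named in each comparison. The members and lists were chosen with earlier results of these data known. Whether the arrays of a group come from separate embryos is not stated, so p-values refer to the variation between arrays, part of which may be technical. The number of arrays limits the precision. Alternatives left out each array, blocked on replicate number, changed the probe set rule, filter, scaling and variance model, fitted the compared groups alone, and used sex pattern; the covariate in null minus ΔG and the alternatives for assembly genes were added after seeing the data. Fkbp10, Kdelr2, Adamts2 and Loxl2 were not analysed here.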

Additional observations from a re-analysis of the deposited data

How the results depend on the processing

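Leaving out 1 array at a time gave 12 to 19 lower and 2 higher collagen genes in null minus WT (medians -0.203 to -0.161, 12 lower without WT replicate 2). Of all genes, 6.74% to 10.5% were then lower and 1203 to 1795 were higher. ΔG minus WT gave none (medians -0.0369 to 0.00194), where 0.311% to 1.26% of all genes were called. Null minus ΔG gave 2 to 17 lower and 1 higher (medians -0.202 to -0.156). Of all genes, 2.15% to 5.91% were lower there and 334 to 1230 were higher. With the Y-linked mean as covariate, null minus WT had 1 higher and 1 lower (median -0.202), where 764 and 816 of all 19938 genes were. The median of the 18 genes called lower in the main fit moved from -0.48 to -0.36. Null minus ΔG had 0 higher and 0 lower with this covariate, and 53 of all genes were called. Against WT replicate 3 alone, 4 were lower (median -0.216). Both alternatives had fewer arrays or degrees of freedom for the genotype term. No single collagen call changed sign under any alternative run; Col4a1 and Col5a3 kept their call in null minus WT in all 18, while Col6a2 lost it in 9, Col11a1 in 8 and Col5a1 and Col12a1 in 6 each.

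Same-numbered arrays did not deviate together throughout, though most of their correlations were positive. These were 0.133, 0.182 and 0.0227 for null and WT, -0.0314, 0.269 and 0.0593 for ΔG and WT, and 0.0958, 0.122 and -0.0837 for null and ΔG. Between arrays of unlike number they ran from -0.159 to 0.0701, from -0.21 to 0.137 and from -0.241 to 0.116, in that order. A pairing by number was therefore neither shown nor excluded. With the replicate number as a block, 18 collagen genes were lower in null minus WT, 0 in ΔG minus WT and 18 in null minus ΔG. Quantile normalisation over again gave 14 lower in null minus WT and 11 in null minus ΔG. No detection calls were used, so the signal of the dim chains was not set against background.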
